A study of Caenorhabditis elegans with 2 samples.

Results

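The ceh genes of Caenorhabditis elegans are homeobox genes that carry the name ceh- and a number. They were scored for LSY-2 peaks by chromatin immunoprecipitation and sequencing. The set holds every protein-coding gene of that name in the WBcel235 annotation except ceh-13, which makes 62 of 19973 protein-coding genes on the 6 nuclear chromosomes. The single group consisted of whole L1 larvae, male and female pooled, that were starved after bleaching. They were of strain OP367, with the genotype unc-119(tm4063) III; wgIs367. In this strain an inserted transgene makes LSY-2, a C2H2 zinc finger protein known for making the left and right ASE taste neurons differ, fused to eGFP. The promoter that drives the transgene is not given in the labels. There were 2 biological replicates and no second condition, so no contrast between samples was possible, and the ceh genes are set beside all protein-coding genes without a test. With whole larvae, strong binding in a few cells cannot be told apart from weak binding in many.

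Homeodomain proteins bind DNA through a helix-turn-helix fold and fix cell identity during development. In the worm, homeodomain factors specify most neuron classes, and others act in pharyngeal muscle, epidermis and the excretory system. Their genes fall into classes by the sequence of the homeodomain. These include the ANTP class with the NK-type and Distal-less genes, the PRD class with the Otx genes, the POU, LIM and sine oculis classes, the CUT class with the ONECUT genes, and the TALE class of Hox cofactors.

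LSY-2 peaks were present at a minority of the ceh genes, as they were at a minority of all protein-coding genes. Of the 16 ceh summits, 10 had a signal below the median of all peaks, which is not far from an even split. A summit of the authors' thresholded list lay in the promoter window, which reached 1000 bp upstream and 200 bp into the gene from its 5′ end, in 9 of the 62 genes, or 14.5%, against 21.1% of all protein-coding genes. A summit lay inside the gene span in 8, or 12.9%, against 7.84% of all genes. This order turned when any base of the peak inside the gene was counted, with the same 8 ceh genes, or 12.9%, against 14.7% of all genes. There were 3 genes with both, so that 14 genes, or 22.6%, had at least 1 summit in either place, against 25.6% of all genes, and 48 had none. Among genes with a promoter summit, the median of the highest signal was 205.6 for the ceh genes and 282.5 for all protein-coding genes. Other regulator families, counted the same way, gave promoter shares of 17.8% for 269 nhr genes (nuclear hormone receptors), while 3 of 25 hlh genes (basic helix-loop-helix factors) and 0 of 9 fkh genes (forkhead factors) had one. Of 39 homeobox genes with other names, such as the Hox gene lin-39 and the POU gene unc-86, 11 had a promoter summit and 16 had one inside the gene.

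The strongest LSY-2 peak at a ceh gene belonged to ceh-38, a CUT-class gene of the ONECUT type whose product takes part in pan-neuronal gene expression. Its signal, the authors' value per peak in units they do not state, was 1300.9 in replicate 1 and 1404.9 in replicate 2, and 2697.8 in the thresholded list made from both. This was rank 168 of the 6850 thresholded peaks. The summit lay 23 bp downstream of the 5′ end, in the annotated 5′ UTR. It also fell in the promoter window of malt-1, the gene of the worm's paracaspase homolog, which is transcribed in the opposite direction, at −249 bp of that gene. The part of the peak that lies upstream of ceh-38, chrII:6951319-6951525 of ce11 on the plus strand, is given because it makes up most of the space between both genes and shows the AT-rich sequence of this divergent promoter, with a GC content of 27.5%.
ceh-38: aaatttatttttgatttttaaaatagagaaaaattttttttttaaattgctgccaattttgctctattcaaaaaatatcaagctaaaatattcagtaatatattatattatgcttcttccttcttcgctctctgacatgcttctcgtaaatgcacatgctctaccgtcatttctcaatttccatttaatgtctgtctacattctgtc

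Second was ceh-20, the Pbx-type TALE gene that encodes a DNA-binding partner of Hox proteins. Its peak, on chromosome III from 6978880 to 6979294, had a signal of 353.9 in replicate 1 and 547.3 in replicate 2, and 907.5 in the thresholded list. The summit lay at −785 bp from the 5′ end and in the promoter window of no other protein-coding gene. The ceh-38 signal exceeded that of ceh-20 by 2.97-fold, and that of ceh-20 exceeded the next, at ceh-6, by 2.77-fold. Across all thresholded peaks found in both replicates, 6745 in number, replicate 2 was higher than replicate 1 by a median log2 ratio of 0.20, and these ratios had an SD of 0.52, or 1.44-fold. Both gaps were larger than 1.44-fold. That SD describes replicate ratios at single peaks, so it is not the error of a ratio between different peaks. From ceh-6 downward, each of the remaining summits differed from the next in order by 1.31-fold or less, which is below 1.44-fold.

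Another ONECUT gene, ceh-39, which acts as an X signal element in counting X chromosomes for sex determination, had a summit at −193 bp, with 83.5 in replicate 1, 124.9 in replicate 2 and 205.6 in the thresholded list. It lies in a cluster of CUT genes with ceh-21 and ceh-41 on the X chromosome, and neither of those had a summit in the window or the gene. ceh-93 had a summit at −145 bp, with 70.3 and 87.0 in replicates 1 and 2 and 159.4 in the thresholded list. ceh-100 had one at −208 bp, with 65.6 and 40.1 in replicates 1 and 2 and 97.0 in the thresholded list, which was also at −498 bp of lips-15, a lipase-related gene. In the replicate 2 list, the strongest region in the ceh-100 window was another one, at −830 bp with a signal of 84.5. The first summit of ceh-88, at −59 bp, had 40.7 and 64.4 in replicates 1 and 2 and 109.7 in the thresholded list.

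Sequences of 101 bases centred on these summits, read on the strand of each gene from the RefSeq genome of the ce11 build, are given for 5 of the 9 promoter summits. The word of 8 bases that gained most in share between the windows of all other summits and flanks 300 bp away was AGACGCAG, and of 6 bases it was GAGAGA, both counted on either strand. They are in capitals where present, and they can overlap, as they do in ceh-100. The windows are chrIII:6979049-6979149 (plus) for ceh-20, chrX:1856315-1856415 (minus) for ceh-39, chrX:388892-388992 (minus) for ceh-93, chrII:12603838-12603938 (minus) for ceh-100 and chrIV:17329079-17329179 (plus) for ceh-88.
ceh-20: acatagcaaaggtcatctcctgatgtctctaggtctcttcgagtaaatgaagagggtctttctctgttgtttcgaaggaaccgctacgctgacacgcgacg
ceh-39: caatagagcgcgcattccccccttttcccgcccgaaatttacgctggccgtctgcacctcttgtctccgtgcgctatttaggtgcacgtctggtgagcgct
ceh-93: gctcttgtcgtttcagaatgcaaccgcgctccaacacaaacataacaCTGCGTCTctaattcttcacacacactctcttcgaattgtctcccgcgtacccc
ceh-100: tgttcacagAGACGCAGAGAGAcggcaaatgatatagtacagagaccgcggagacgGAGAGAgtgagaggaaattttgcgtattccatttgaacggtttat
ceh-88: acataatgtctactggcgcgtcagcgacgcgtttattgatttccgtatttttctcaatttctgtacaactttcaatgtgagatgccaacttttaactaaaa

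AGACGCAG was found in 3 of the 16 windows at ceh summits (ceh-6, ceh-93 and ceh-100), against 9.77% of all 6850 summit windows and 0.482% of flanks. GAGAGA was found in 4 windows (ceh-2, ceh-18, ceh-100 and the ceh-88 summit inside the gene), against 28.1% of all summit windows and 6.12% of flanks. TAAT, the core that many homeodomains recognise, was in 7 of the 16, against 41.4% of all summit windows and 65.6% of flanks, again on either strand. The ceh-39 window had the highest GC content of those printed, 58.4%, against a median of 43.6% over all summit windows. These matches describe letters in short windows and do not show which factor bound there.

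**Figure D1:**
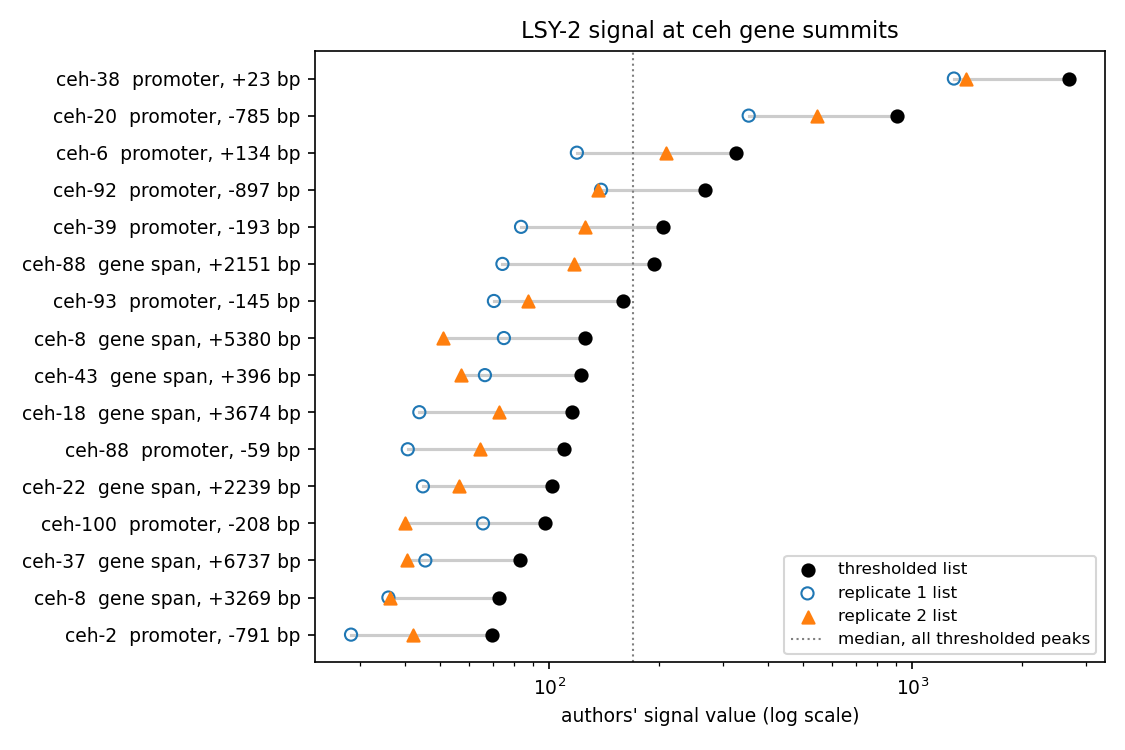
Authors' signal value (log axis) at the 16 thresholded summits in the promoter windows or spans of ceh genes, in the thresholded list (black), replicate 1 (open blue) and replicate 2 (orange). The ceh-38 and ceh-20 summits stand apart from the other 14, and 10 of the 16 lie below the median of all thresholded peaks (dotted).

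The remaining promoter summits belonged to ceh-6, ceh-92 and ceh-2. ceh-6, a POU-class gene needed in the excretory canal cell, had a summit 134 bp downstream of its 5′ end, in the 5′ UTR, with 119.0 in replicate 1, 208.9 in replicate 2 and 327.1 in the thresholded list. The peak spans 8502332 to 8502595 on chromosome I and served no other promoter window. ceh-92 had a summit at −897 bp, with 138.7 and 135.8 in replicates 1 and 2 and 268.5 in the thresholded list. That summit lay inside the neighbouring gene Y66D12A.6 and at −225 bp of Y66D12A.7, whose 5′ end was nearer. ceh-2, an Ems-type gene active in pharyngeal neurons, had the weakest summit of all, at −791 bp, with 28.4 and 42.2 in replicates 1 and 2 and 69.5 in the thresholded list, where the lowest signal was 68.8. A tRNA gene lay 6 bp from the ceh-2 summit.

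Of the 9 promoter summits, 7 lay upstream of the 5′ end, 4 of them within 250 bp, and the median position was −193 bp, against −230 bp over all pairs of a gene and a promoter summit. There were 3 that also fell in the promoter window of another protein-coding gene (malt-1, Y66D12A.7 and lips-15), and 8 had a ceh gene as the nearest 5′ end. Among all 3340 distinct promoter summits, 30.4% served more than 1 gene. The ceh-92 summit was the closest to the outer edge of the window, and the summit just beyond that edge was one of 80.8 at −1027 bp of ceh-43. Downstream, the ceh-6 summit at 134 bp was inside and the ceh-43 summit at 396 bp outside.

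Inside ceh genes there were 9 summits, of which 2 were the ceh-38 and ceh-6 summits at the 5′ end. Introns held 5, in ceh-43, ceh-18, ceh-22, ceh-37 and ceh-8, and none was in coding sequence. When the window was taken from the 5′ end of any transcript, ceh-8 and ceh-22 also had a promoter summit. ceh-43, the Distal-less gene of the worm, had its summit in intron 1 of 4, 396 bp from the 5′ end, with 66.4 and 57.0 in replicates 1 and 2 and 121.9 in the thresholded list. That summit fell within a tRNA gene of the same strand, so the intron and the tRNA gene cannot be told apart as the place of the signal. The window chrIII:4449497-4449597, read on the minus strand, is given with the tRNA gene in capitals.
ceh-43: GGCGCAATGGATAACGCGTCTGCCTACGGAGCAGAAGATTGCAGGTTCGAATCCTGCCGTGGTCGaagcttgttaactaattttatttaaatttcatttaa

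Of the 16 ceh summits, those of ceh-43 and ceh-2 were the 2 within 100 bp of a tRNA gene, against 2.93% of all thresholded summits. ceh-18, a POU gene of the gonadal sheath that acts on oocyte meiosis, had a summit in intron 2 of 8, 3674 bp from the 5′ end, with 43.8 in replicate 1 and 72.6 in replicate 2. ceh-22, the NK-2 type gene of pharyngeal muscle, had one in intron 2 of 6, with 44.8 and 56.3 in replicates 1 and 2. ceh-37, an Otx gene required in the AWB olfactory neurons, had one in intron 1 of 5, 6737 bp from the 5′ end, with 45.5 and 40.5 in replicates 1 and 2. In the thresholded list these 3 had signals of 115.7, 101.9 and 83.0 in that order, all under the median of all peaks, 169.4. The ceh-18 window held GAGAGA on the other strand, and those of ceh-22 and ceh-37 held neither word. The 3 windows are chrX:3854073-3854173 (minus) for ceh-18, chrV:10674107-10674207 (plus) for ceh-22 and chrX:14201213-14201313 (minus) for ceh-37, and are given as examples of intron sites with no tRNA gene within 100 bp.
ceh-18: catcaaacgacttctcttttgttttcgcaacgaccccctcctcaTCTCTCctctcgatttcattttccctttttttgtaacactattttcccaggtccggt
ceh-22: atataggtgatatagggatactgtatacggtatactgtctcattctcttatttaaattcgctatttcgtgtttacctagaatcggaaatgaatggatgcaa
ceh-37: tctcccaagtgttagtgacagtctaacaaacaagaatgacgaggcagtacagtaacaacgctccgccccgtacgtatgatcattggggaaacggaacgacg

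The remaining summits inside genes belonged to ceh-8 and ceh-88. ceh-8, a PRD-class gene of the Rax type, held 2 summits, and was alone among the ceh genes in this. One was in intron 2 of 5, with 72.8 in the thresholded list, 36.4 in replicate 2 and a log2 ratio of replicate 2 to replicate 1 of 0.01. The other was in the 3′ UTR, 63 bp from the 3′ end, with 125.1 in the thresholded list, 74.9 in replicate 1 and a log2 ratio of −0.55. This second summit lay at −605 bp of the collagen gene col-63, and the intron summit at −2716 bp of it. For both summits the 5′ end of col-63 was the nearest. The second summit of ceh-88 was likewise in an annotated 3′ UTR, at −188 bp of the next gene, C49C3.6, with 74.2 and 117.1 in replicates 1 and 2 and 194.6 in the thresholded list. ceh-38 and ceh-6 apart, it was the strongest summit inside a ceh gene.

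Longer genes held summits more often. No ceh gene of up to 2000 bp had one inside, 0 of 24, against 2.41% of all protein-coding genes of that length. From 2000 to 5000 bp the count was 5 of 29, or 17.2%, against 7.29% of all such genes. Lengths were not matched within that range, where the median was 3442 bp for ceh genes and 2912 bp for all genes. The 5 also include ceh-38 and ceh-6, with their summits at the 5′ end. Above 5000 bp the count was 3 of 9, or 33.3%, against 25.6%. The median length was 2735 bp for the ceh genes and 2027 bp for all protein-coding genes, and summits inside genes numbered 4.15 per 100 kb of ceh gene against 3.58 per 100 kb over all. The longest ceh gene, ceh-100 with 21503 bp, had none inside. Homeobox genes with other names were longer, with a median of 4858 bp, and had 13.4 summits per 100 kb.

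**Figure D2:**
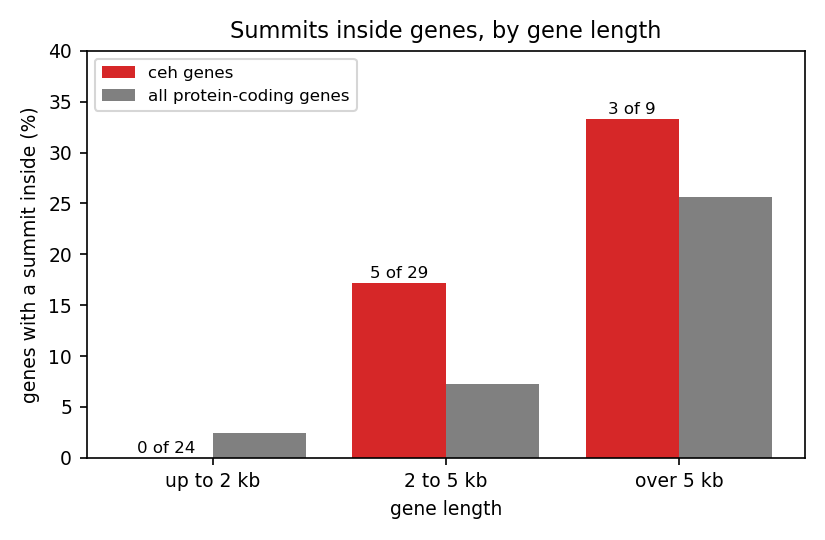
Share of genes with at least 1 thresholded summit inside the gene span (percent), by gene length, for ceh genes (red, with counts) and all protein-coding genes (grey). In each group the share is lowest up to 2 kb, at 0% and 2.41%, and highest above 5 kb, at 33.3% and 25.6%.

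By homeodomain class, promoter summits were spread thinly. The CUT class had 2 of 6 (ceh-38 and ceh-39), TALE 1 of 3 (ceh-20), POU 1 of 2 (ceh-6) and ANTP 1 of 19 (ceh-2), and 20 genes with no class assigned here had 4 (ceh-88, ceh-92, ceh-93 and ceh-100). The 8 PRD genes, the 3 sine oculis genes and the LIM gene ceh-14 had none. Both POU genes had a summit in the promoter or the gene, since the ceh-18 summit lay in an intron. The ANTP class added ceh-22 and ceh-43, and the PRD class ceh-8 and ceh-37, through summits inside the gene. Classes were too small for a comparison between them.

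**Figure D3:**
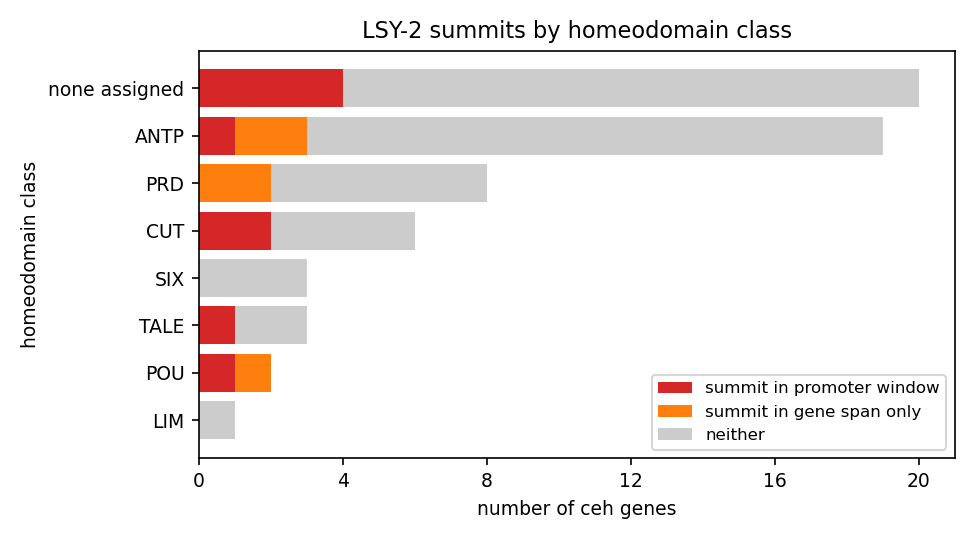
Number of ceh genes in each homeodomain class with a thresholded summit in the promoter window (red), in the gene span only (orange) or in neither (grey). ANTP genes make up 16 of the 48 grey genes and genes with no class assigned another 16.

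Genes with neither kind of summit included ceh-1, ceh-5, ceh-7 and ceh-9 among 16 of the ANTP class. In the PRD class there were 6, among them ceh-10, which acts with ttx-3 in the AIY interneurons, ceh-17, ceh-36 and ceh-45. All 3 sine oculis genes were among them, namely ceh-32, ceh-33 and ceh-34, the last of which specifies pharyngeal neurons. So were the CUT genes ceh-21, ceh-41, ceh-48 and ceh-49, the TALE genes ceh-40 and ceh-60 and the LIM gene ceh-14. The 16 without a class included ceh-57, ceh-58, ceh-74 and ceh-75. The cluster of ceh-81, ceh-82 and ceh-83 was the farthest from any summit, with the nearest one at −66.7 kb of ceh-81, −68.5 kb of ceh-82 and 72.8 kb of ceh-83.

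Weak regions below the threshold lay at some of these genes. The pooled list, background included, had a region in the promoter window of 27 ceh genes, or 43.5%, against 37.7% of all genes. Of the 53 ceh genes with no promoter peak, 18 had such a region. This count was not made for all genes without a promoter peak, so it has no share beside it. Signals of the 18 ceh genes with a region but no promoter peak ran from 15.4 to 60.7, with a median of 32.9. The highest were at ceh-89 with 60.7, ceh-5 with 56.9, ceh-10 with 54.6 and then ceh-32, all under the lowest thresholded signal of 68.8. At ceh-10 the region lay at −140 bp, with 30.7 in replicate 1 and 26.2 in replicate 2, and at ceh-14, which acts in the AFD thermosensory neurons, one of 44.9 lay at −446 bp. All 3 sine oculis genes had one, ceh-34 with 31.0 and ceh-33 with 15.4. At 14 of the 18 genes both replicate lists also held a region somewhere in the window, a count not made over all genes. The 2 regions lay close together at some genes, as at ceh-10 (−150 bp in replicate 1 and −154 bp in replicate 2). At others they lay apart, as at ceh-62 (−923 and −299 bp). At the other 35 genes the pooled list held none, ceh-36 and ceh-37 included.

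Up to the next gene upstream, summits were about as dense at ceh genes as over all protein-coding genes. The interval from the 5′ end to the next protein-coding gene held at least 1 summit for 18 ceh genes, or 29.0%, against 25.1% of all genes. The median interval was 1788 bp for ceh genes and 936 bp for all protein-coding genes, and summits there numbered 13.7 per 100 kb and 14.2 per 100 kb in that order. More than 1000 bp upstream lay 23 summits of 13 ceh genes. These counts were made for ceh genes only, so no share of all genes stands beside them. Of the 13 genes, 11 had no promoter peak, and 19 of the 23 summits were in no promoter window of a protein-coding gene. Signals of the 23 ran from 71.1 to 568.7 with a median of 109.7. The highest, in the interval of ceh-62 at −7070 bp, was in the promoter window of npp-19, a nucleoporin gene.

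ceh-36, the Otx gene that acts in the ASE and AWC sensory neurons, had 2 of these distal summits, at −7920 and −10730 bp. The nearer one had 90.6 in replicate 1, 95.7 in replicate 2 and 184.6 in the thresholded list, and the farther one 50.4, 58.4 and 109.7 in the same order. Both lay in the 10805 bp between ceh-36 and its paralog ceh-37, the farther one 75 bp from the 3′ end of ceh-37. ceh-43 had 3, of which the strongest, at −6814 bp, had 204.5 in replicate 1, 278.3 in replicate 2 and 491.0 in the thresholded list. A second summit at −7019 bp belongs to the same peak interval and to the same replicate regions, so it is not a separate site in the replicates. ceh-24, an NK-2 type gene of vulval muscle, had one of 312.3 at −4509 bp, with 118.6 and 189.1 in replicates 1 and 2.

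ceh-48, a ONECUT gene expressed throughout the nervous system, had a summit at −2100 bp, with 74.5 and 137.0 in replicates 1 and 2 and 205.7 in the thresholded list. ceh-16, the engrailed gene of the worm, had one of 147.6 at −1668 bp, and ceh-32, a sine oculis gene, one of 90.3 at −3661 bp. The summit at −3434 bp of ceh-34, with 93.8 and 97.3 in replicates 1 and 2, lay 182 bp from the 3′ end of ceh-33. ceh-58 had 4 upstream summits, the most of any ceh gene, with signals from 77.6 to 243.4, and that nearest to the next gene was in the promoter window of ztf-27. The second upstream summit of ceh-39, at −2602 bp, was 45 bp from a tRNA gene.

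**Figure D4:**
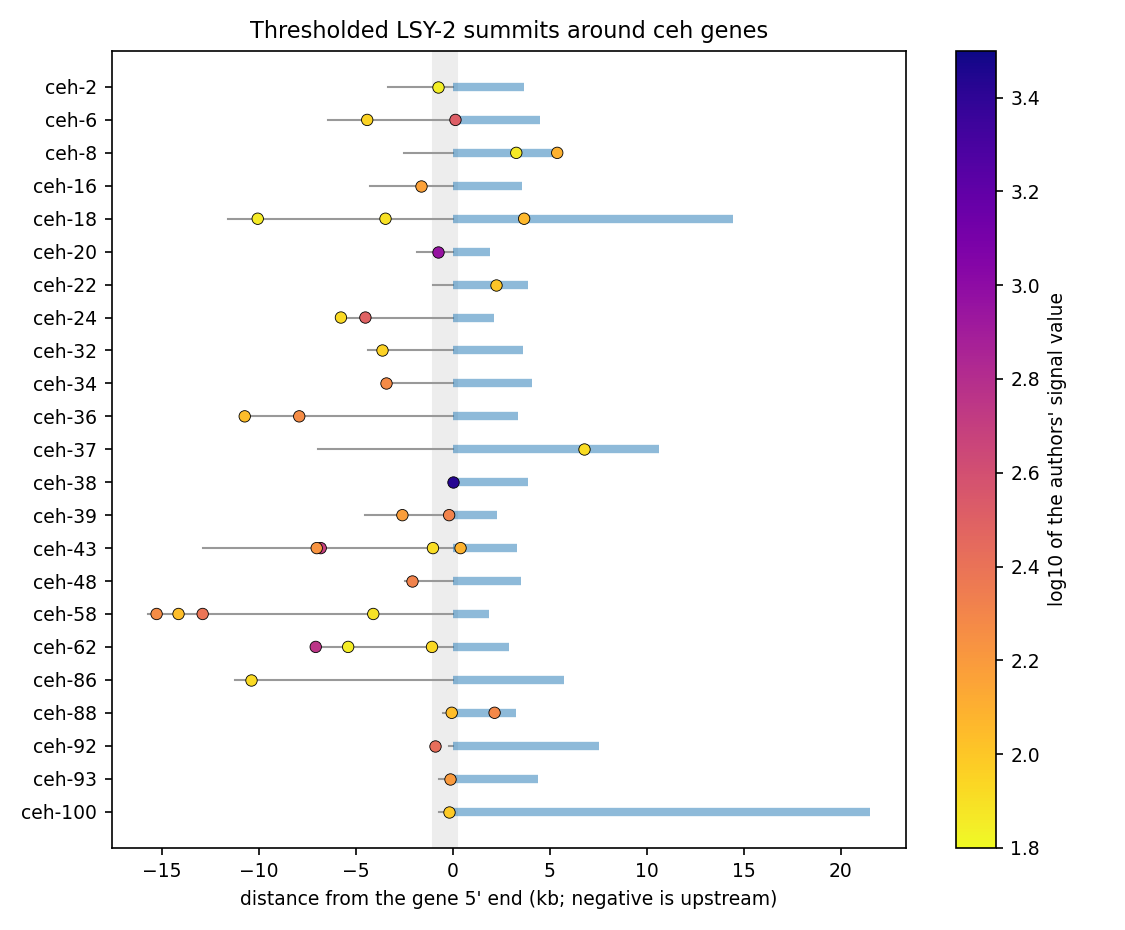
Thresholded summits (points, coloured by log10 of the authors' signal) by distance from the gene 5′ end in kb, for the 23 ceh genes with a summit in the promoter window, gene span or upstream interval. Grey lines are the interval to the next protein-coding gene, blue bars the gene and the shaded band the promoter window; ceh-36, ceh-58 and ceh-86 have their summits far upstream.

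Over longer distances, the values for ceh genes and all genes lay close together. The nearest summit was a median of 6201 bp from the 5′ end for ceh genes and 5998 bp for all protein-coding genes. It was within 1 kb for 16.1% of ceh genes against 22.7% of all genes, and within 5 kb for 45.2% against 46.0%. Beyond 10 kb were 21 ceh genes, or 33.9%, against 36.9% of all genes. On the X chromosome 2 of 18 ceh genes had a promoter summit, against 15.9% of all X-linked genes, and on the autosomes 7 of 44, against 21.9%. None of the 12 ceh genes on chromosome V had one, against 13.6% of all genes there.

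**Figure D5:**
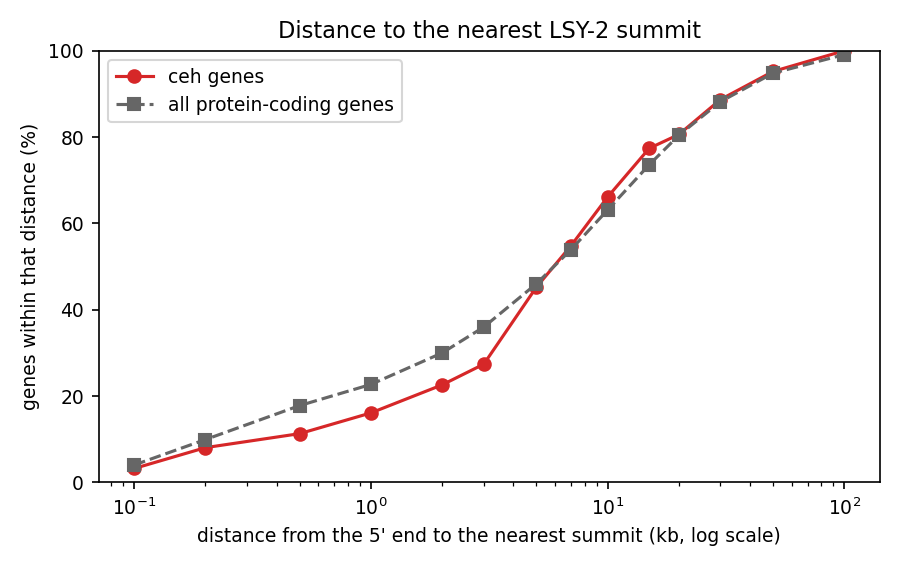
Cumulative share of genes (percent) whose nearest thresholded summit lies within a given distance of the 5′ end (kb, log axis), for ceh genes (red) and all protein-coding genes (grey, dashed). The ceh line runs below the other at short range, with 16.1% against 22.7% within 1 kb, and meets it near 5 kb.

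The replicates placed the ceh summits alike. At all 16, each replicate list held a region that covered the summit, with its own summit at most 54 bp away. Regions in both lists also covered the summits of 6745 of all 6850 thresholded peaks. The thresholded list was made from these replicates, so this cover was largely set beforehand. At the 16 ceh summits, replicate 2 had the higher signal at 11 and replicate 1 at 5. The log2 ratios ran from −0.71 at ceh-100 to 0.81 at ceh-6, with a median of 0.32. Of the 16 ratios, 12 were within 1 SD of the median over all peaks. The read depth of either library is unknown, so the counting error of a signal could not be given.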

How the data were processed

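The data are peak lists from 2 biological replicates of LSY-2 ChIP-seq, with DNA fragments of 150 to 350 bp per the labels. The README texts that were deposited state that regions were listed, background included, once per replicate and once for the replicates pooled, each time against a control. An irreproducible discovery rate analysis of these 3 lists gave the thresholded one. Aligner, peak caller and read depth: not given in the sources used here. The thresholded list held 6850 peaks and the other lists 30000 regions each. The control's own values and the ce10 versions were not used here.

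The authors' signal per region was used as deposited, and its scaling is not stated. Summits are the region's start plus the authors' offset. Coordinates are 1-based, in ce11, which is the WBcel235 assembly of the Ensembl release 115 annotation and the RefSeq genome. A gene's 5′ end is that of its gene record. Replicate signals at a summit are those of the strongest region covering it.

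The members, classes and comparison lists were chosen with earlier results of these data known, and the 2 words were chosen from the windows of all other summits. The classes named 43 ceh genes, of which 42 were matched. ceh-44 had no protein-coding record of that name. All ceh genes with a summit in the promoter or span were named, with up to 4 of each class without one. Genes named for regions below the threshold or far upstream were chosen after their values were seen. No test was run, since there is 1 group and 1 thresholded list. Summit assignment was tested on simulated data. Python 3.11.15, numpy 2.4.6 and pandas 2.3.3 were used. Alternatives were each replicate's 6850 strongest regions alone, stronger peaks, other windows, peak overlap, the nearest 5′ end, transcript 5′ ends and, chosen after seeing the data, the pooled list and the whole upstream interval.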

Additional observations from a re-analysis of the deposited data

How the results depend on the processing

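With either replicate alone, the number of ceh genes with a promoter summit was 10 to 10, against 9 as reported, and with a summit inside the gene 8 to 8. Without replicate 1, all 9 genes were among the 10, and without replicate 2, 8 were, with ceh-2 lost. Each of the 9 had a region in its window in either replicate's list, so the number scored stayed at 9 to 9. The 9 were picked by peaks made from both replicates, so that number is no separate check. Only peaks at or above the median signal gave 5 genes with a promoter summit (14.6% of all genes) and 3 with one inside (3.6% of all genes). The window from 500 bp upstream to 100 bp downstream gave 5 (16.6% of all genes), losing ceh-20, ceh-6, ceh-92 and ceh-2. The pooled list gave 27 and 21 (37.7% and 29.4% of all genes), and the interval up to the next gene gave 19 (26.2% of all genes), with ceh-92 lost. Unlike the 18 genes given above for the upstream interval, the 19 include ceh-38, whose summit lay 23 bp downstream of its 5′ end. By construction these alternatives use fewer peaks, more regions or other lengths. The other alternatives gave 8 to 13 genes with a promoter summit and 6 to 8 with one inside. Counting any base of the peak inside the gene left the ceh genes at 8, but put their share below that of all genes, which came to 14.7%. Under each of the other alternatives the ceh share inside the gene was above that of all genes. The ceh share with a promoter summit was below that of all genes under each alternative except the pooled list and the whole upstream interval, where it was above. No paired analysis was possible because there is 1 group. Depth is unknown, so the absence of a listed summit does not show an absence of binding.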
